A study of Mus musculus with 6 samples.

Results

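Slc12a2 and Slc12a5 encode the chloride transporters NKCC1 and KCC2, and they were followed here as 2 of the 19465 genes counted in coronal brain sections of mice at 3 ages. Both were taken by gene symbol from the count table of each section, and each symbol was found once in all 6 sections. Slc12a2 (ENSMUSG00000024597) lies on the plus strand at chr18:57878678-57946821 and Slc12a5 (ENSMUSG00000017740) on the plus strand at chr2:164960802-164999731 in the GENCODE vM21 annotation of GRCm38, the mm10 build that the files use.

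The mice were untreated C57BL/6J males. They were taken at postnatal day 21 (P21, bred in house), as adults of 12 to 15 weeks, or as aged mice of 28 months from the NIA, with 2 mice per age and 1 formalin-fixed, paraffin-embedded section per mouse. P21 and adult sections lay directly on Visium v1 slides, whereas aged sections were transferred by CytAssist to Visium v2 slides with a modified probe chemistry and a later counting program, so age and these steps cannot be told apart in aged vs. adult. The stated source of the mice also differed between P21 and aged mice, so source and age cannot be told apart either. The paper itself names Jackson Laboratory as the source of its mice. Each value is a number of UMIs, the molecule tags that mark single probe ligations, in slide spots that each cover several cells.

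NKCC1 carries chloride into cells together with sodium and potassium, and KCC2 carries chloride and potassium out of neurons. The balance between both sets whether chloride flows into or out of a neuron when a GABA-A receptor opens, and in the immature brain high NKCC1 and low KCC2 make GABA depolarizing. KCC2 is a neuronal protein, whereas NKCC1 is also abundant in the choroid plexus epithelium, where it moves ions across the membrane that faces the ventricle, and in cells of the oligodendrocyte lineage.

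The start of Slc12a5 is shown because Usf1 and Egr4, transcription factors known to act on this gene, were counted in the same sections. RefSeq (GRCm38.p6) gives Slc12a5 a pair of start sites, whose transcripts encode the isoforms KCC2a from the upstream and KCC2b from the downstream first exon, and the UMIs do not separate them. The 250 bases before the downstream start, chr2:164967738-164967987 on the plus strand inside the gene, hold the E-box CACGTG once, at chr2:164967952-164967957, 36 bases before the start, and this motif of Usf1 is in capitals.
Slc12a5 downstream start: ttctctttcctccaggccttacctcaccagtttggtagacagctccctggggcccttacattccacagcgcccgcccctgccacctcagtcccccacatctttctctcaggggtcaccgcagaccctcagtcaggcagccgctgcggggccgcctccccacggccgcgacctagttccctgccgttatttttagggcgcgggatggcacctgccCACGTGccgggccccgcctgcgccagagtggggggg
CACGTG reads the same on both strands and is a special case of CANNTG. It occurs in 6.02% of 32851 RefSeq start windows, and the window of the upstream start, chr2:164960596-164960845, has none. The Egr motifs GCGGGGGCG and GCGTGGGCG, searched on both strands and found in 2.57% and 0.536% of the windows, are in neither Slc12a5 window. Slc12a2 is not among the windows.

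The 6 sections held 2917 to 3679 spots, 42422997 to 106783660 UMIs and a median of 12074.5 to 25535 UMIs per spot. The 2 sections of an age correlated with a Pearson r of log2 CPM (UMIs per 1000000 UMIs of the section or zone) between 0.995 and 0.998 across genes, which are not independent replicates. Slc12a2 was counted 3767 to 8632 times and Slc12a5 5135 to 14921 times per section. Spot barcodes recur between the v1 sections (2612 to 2997 per pair) and between the aged sections (3364), since a barcode is a slide position. Spots were grouped into 15 anatomical zones from genes other than Slc12a2, Slc12a5 and their pathway, and 18.8% of the 20336 spots stayed without a name. The zones are the upper and deep cortex (CTX upper, CTX deep), piriform and amygdalar cortex (PIR-AMY), dentate gyrus (DG), CA1, CA3, hippocampal neuropil (HP matrix), thalamus (TH), reticular thalamus (RT), striatum (STR), hypothalamus (HY), meninges (MEN), medial habenula (MHb), ventricular system (VS) and fiber tracts (FT). Each name rests on the panel of marker genes that scored highest. RT spots also carried 15690 to 57220 CPM of mature oligodendrocyte genes on average at the 3 ages beside their GABAergic genes, and the aged FT, CTX upper and PIR-AMY were formed largely by clusters that were rare in the other sections. The aged CA1 held 76 and 101 spots against 33 and 36 in adults, with astrocyte genes at 4950 against 1598 CPM on average and microglial genes at 709.4 against 200.3 CPM. In the HP matrix there were 53 and 39 aged against 225 and 270 adult spots, and in the PIR-AMY 371 and 329 against 79 and 104. These zones may thus not cover like tissue at both ages.

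Over whole sections, Slc12a2 was highest at P21 and lowest in aged mice. It was counted at 95.8 and 88.8 CPM in the P21 sections, 81.7 and 74.1 CPM in the adults and 55.8 and 59.1 CPM in the aged mice. The 3 ages did not overlap. In the edgeR quasi-likelihood fit over all 6 sections, Slc12a2 was higher in P21 vs. adult by 0.24 ± 0.07 on the log2 scale (SE, adjusted p = 0.0334) and lower in aged vs. adult (log2 change −0.55 ± 0.07, adjusted p = 0.00015). Of the 18104 genes tested, 11.7% were called higher at P21 and 25.8% lower in aged sections, where a call is an adjusted p under 0.05. The P21 difference lost its call when any 1 of the 4 P21 and adult sections was left out, with log2 changes of 0.18 without P21 replicate 1, 0.29 without P21 replicate 2, 0.30 without adult replicate 1 and 0.18 without adult replicate 2, whereas the aged difference kept it. Because each section is from its own mouse, these p-values measure the spread between mice and sections together, and fewer cells of a type cannot be told apart from less RNA per cell.

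Slc12a5 was nearly level over whole sections. Its values were 121.8 and 121 CPM at P21, 135.7 and 133.3 CPM in adult mice and 127.3 and 139.7 CPM in aged mice. Both P21 sections lay below both adult sections, and the aged sections lay on either side of them. Neither difference was called (P21 vs. adult −0.15 ± 0.06, adjusted p = 0.108, aged vs. adult −0.12 ± 0.06, adjusted p = 0.125), and with the 4 P21 and adult sections fitted alone the P21 value of −0.15 was called (adjusted p = 0.0279). The size of the aged value depended on the scaling, since library size alone in place of TMM factors moved the median change of all genes from 0.04 to 0.15, that of Slc12a5 to −0.01 and that of Slc12a2 to −0.44.

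**Figure D1:**
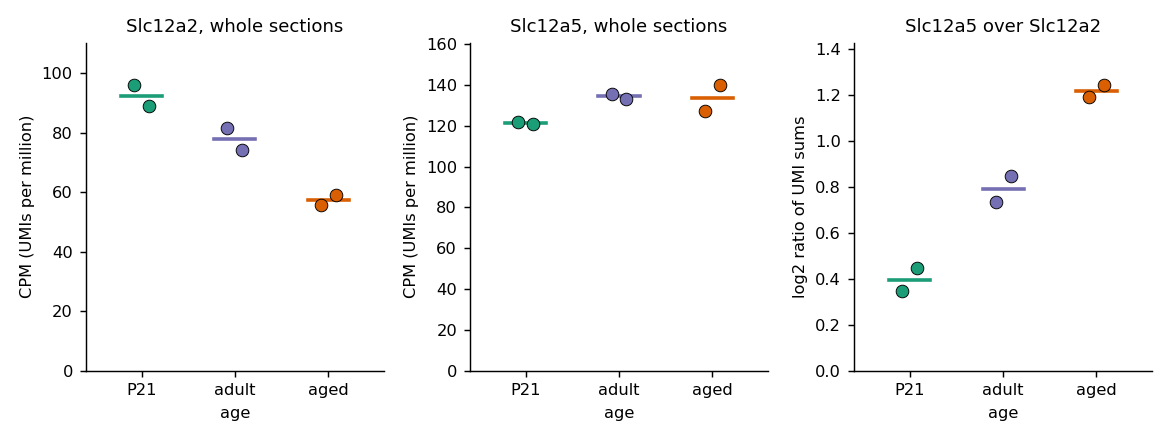
CPM of Slc12a2 and Slc12a5 and the log2 ratio of their UMI sums in each whole section, by age (points are sections, bars are means of 2). Slc12a2 steps down from 95.8 and 88.8 CPM at P21 to 55.8 and 59.1 CPM in aged mice, Slc12a5 stays between 121 and 139.7 CPM, and the log2 ratio is lowest at P21 and highest in aged mice, without overlap.

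The ratio of Slc12a5 to Slc12a2 was lowest at P21 and highest in aged mice. Each gene is read by its own probes, so the level of the ratio is not a ratio of molecules. Its difference can be read between P21 and adult sections, which share a slide version. In aged vs. adult the modified probe chemistry cannot be told apart from age. A spot covers several cells, so the ratio is not one within neurons. The log2 ratio was 0.35 and 0.45 at P21, 0.73 and 0.85 in adult mice and 1.19 and 1.24 in aged mice. The ages did not overlap, with a mean difference of −0.39 for P21 vs. adult and 0.43 for aged vs. adult, and the exact two-sided permutation p of 0.333 is the smallest that 2 sections against 2 can give. The median of per-spot log2 ratios gave −0.63 and 0.32.

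The summed levels of cell type genes moved with these differences. The 8 mature oligodendrocyte genes (among them Mbp and Mobp, which build myelin) summed to 25000 CPM on average at P21, 12200 CPM in adults and 7826 CPM in aged mice. At P21, 7 of 8 were called higher and 1 lower, against 11.7% and 11.2% of all genes. In aged sections 8 of 8 were called lower, against 25.8% of all genes. Slc12a2 per 1000 mature oligodendrocyte UMIs was thus lowest at P21, with 3.92 and 3.47 against 6.60 and 6.16 in adult mice and 7.07 and 7.62 in aged mice. The 10 pan-neuronal genes (such as Snap25, Syt1 and Map2) summed to 9317, 10160 and 9884 CPM, and Slc12a5 per 1000 pan-neuronal UMIs was 13.1 and 13.0 at P21, 13.2 and 13.2 in adult mice and 13.0 and 14.0 in aged mice. Erythrocyte genes summed to 1775 CPM at P21 against 242.9 CPM in adults, and meningeal and mural genes to 66.6 CPM in aged against 112 CPM in adult sections. The part of these cell types in the Slc12a2 differences was not tested.

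Across the brain, Slc12a2 was highest in the VS, which holds the choroid plexus, and in the FT. In the VS it was counted at 227.5 and 229.4 CPM at P21, 246.2 and 270.7 CPM in adult mice and 248.9 and 328.2 CPM in aged mice. In the FT the values were 237.8 and 252.7 CPM at P21, 200.6 and 185.9 CPM in adult mice and 206.2 and 214.1 CPM in aged mice. Both zones were above the mean of the other zones in 6 of 6 sections, by 3.59 times in the VS and 2.87 times in the FT, and the RT followed with 1.56 times.

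With 9.64% to 12.8% of the spots, the FT held 17.8% to 31.2% of all Slc12a2 UMIs, and with 0.368% to 1.77% of the spots the VS held 2.46% to 7.63% of them. Of the UMIs of all genes, the FT held 9.72% and 8.90% at P21, 11.86% and 12.45% in adult and 5.97% and 4.92% in aged sections. The weight of the FT in the whole-section changes of Slc12a2 was not tested. The order went on from the RT (mean 128.3 CPM) to the HY (83.2), TH (79.2), STR (73.1), HP matrix (69.5), MEN (61.1) and CTX deep (56.0), and the lowest means were those of the CTX upper (36.6), PIR-AMY (35.3), CA3 (35.0), DG (33.8) and CA1 (29.7). In the MHb, which was not found in adult replicate 1, Slc12a2 ranged from 67.7 to 100.1 CPM over 5 sections.

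The top 3 zones of Slc12a2 were the lowest 3 of Slc12a5, whereas zones such as the HY and STR held like places in both orders. Slc12a5 was highest in the CTX upper, at 180.5 and 184.8 CPM at P21, 195.7 and 170.6 CPM in adult mice and 181.7 and 186.4 CPM in aged mice, or 1.64 times the mean of the other zones. It was lowest in the VS (mean 49.4 CPM), RT (60.5 CPM) and FT (70.2 CPM), which were below the mean of the other zones in 6 of 6 sections. The zones between them lay within a narrow range, from 148 CPM in the HY through CA1 (142.3), DG (139.5), PIR-AMY (139.1), STR (138.6), TH (124.9), CTX deep (124.9), CA3 (106.6) and HP matrix (105) to 102.5 CPM in the MEN, and the MHb ranged from 70.7 to 119.6 CPM over 5 sections.

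Neighbours in these orders were seldom separated. Of 13 neighbouring pairs, 3 had the same order in all 6 sections for Slc12a2, namely FT over RT, RT over HY and CTX deep over CTX upper, and 2 for Slc12a5, namely CTX upper over HY and CTX deep over CA3. In the log2 ratio, which ran from 2.36 in the CTX upper to −2.53 in the VS, 4 of 13 pairs did so. By the exact sign-flip permutation test, with Benjamini-Hochberg adjustment over 39 pairs, the smallest adjusted p was 0.135, since 6 sections cannot give a raw two-sided p below 0.03125. A pseudocount of 5 CPM cannot change the order of the zones, and TMM scaling cannot change the ratio, since neither enters them. With TMM scaling, tried after the data had been seen, the first and last zones of both genes were the same. The ends changed in other spot sets, where the VS and CA1 had too few spots to be ranked. With interior spots, whose neighbours all lay in the same zone, Slc12a2 ran from the FT to the CTX upper. With zones from each section alone it ran from the FT to the PIR-AMY. In both sets Slc12a5 and the ratio ran from the CTX upper to the FT.

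**Figure D2:**
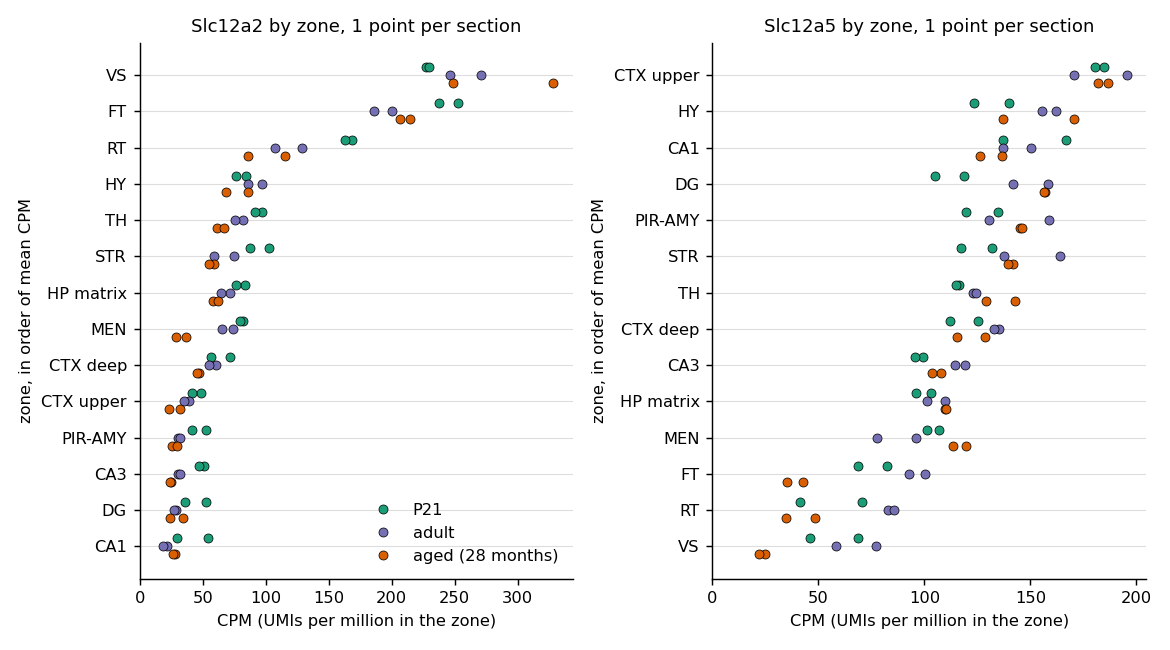
CPM of Slc12a2 and Slc12a5 in each of 14 zones (rows, in order of the mean), with 1 point per section coloured by age. Slc12a2 is highest in the VS, FT and RT, which are the lowest zones for Slc12a5, and aged points of Slc12a5 lie apart in the FT and VS.

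**Figure D3:**
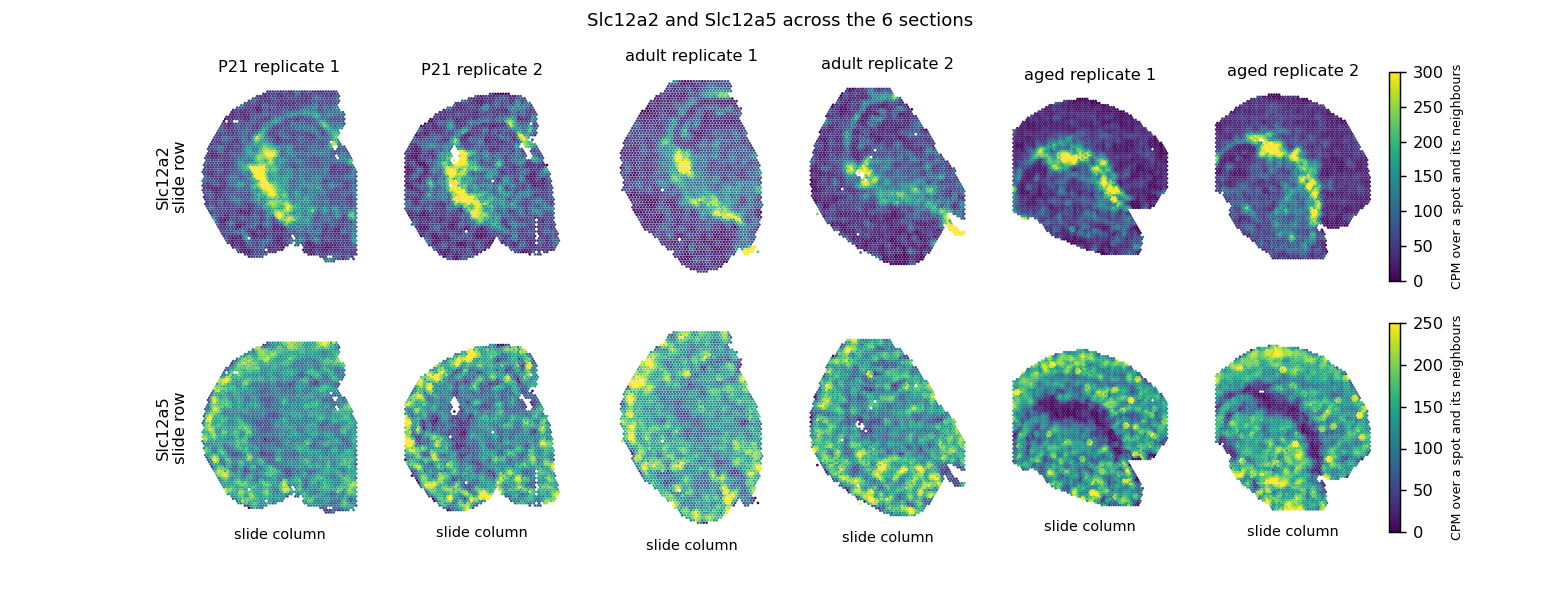
CPM of Slc12a2 and Slc12a5 at every spot of the 6 sections, each averaged over a spot and its neighbours on the slide (axes are slide column and row, colour scales start at 0). Slc12a2 is bright along the fiber tracts and ventricles, where Slc12a5 is dim, most clearly in the aged sections.

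The deposited Moran's I scores, which are high where neighbouring spots carry like values, described the same difference in sharpness. Slc12a2 scored 0.288 and 0.218 at P21, 0.254 and 0.241 in adult mice and 0.311 and 0.326 in aged mice, among the top 3.05% to 6.88% of genes. Slc12a5 scored 0.079 and 0.08 at P21, 0.072 and 0.074 in adult mice and 0.238 and 0.303 in aged mice, so that its aged scores stood apart. By rank it was among the top 12.0% to 17.2% of genes in P21 and adult sections and the top 9.24% and 7.67% in aged ones. Slc12a2 moved from the top 3.05% to 3.24% in P21 and adult sections to 6.09% and 6.88% in aged ones, although its score was highest there. The median over genes was also higher in aged sections (0.023 and 0.03, against 0.011 to 0.017 in the others).

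Across the 84 sums of a section and a zone, the genes most like Slc12a2 were Tmem98 (Pearson r = 0.966), Cd82, Ddr1, Elovl7 and Plekhg3 (0.942). Tmem98 is a membrane protein of oligodendrocytes, Cd82 a tetraspanin, Ddr1 a collagen receptor and Elovl7 a fatty acid elongase. Among the genes most like Slc12a5 were Cacna2d1 (0.881), a calcium channel subunit, Pnmal1 (0.880), Scn2a (0.870), a neuronal sodium channel, and Pdxp (0.850), a phosphatase. Slc12a2 followed the mature oligodendrocyte sum with r = 0.883 over all ages and 0.911, 0.914 and 0.915 within P21, adult and aged sections. Most genes of that sum also belong to the panel that named the FT. Other sums came near it over all ages, with 0.856 for newly formed oligodendrocyte, 0.822 for ependymal, 0.762 for oligodendrocyte precursor and 0.752 for choroid plexus genes. Slc12a5 followed the pan-neuronal sum with r = 0.672 over all ages and 0.459, 0.562 and 0.751 within the ages, and the r between both transporters was −0.718. These are descriptions over sums that share 6 libraries.

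**Figure D4:**
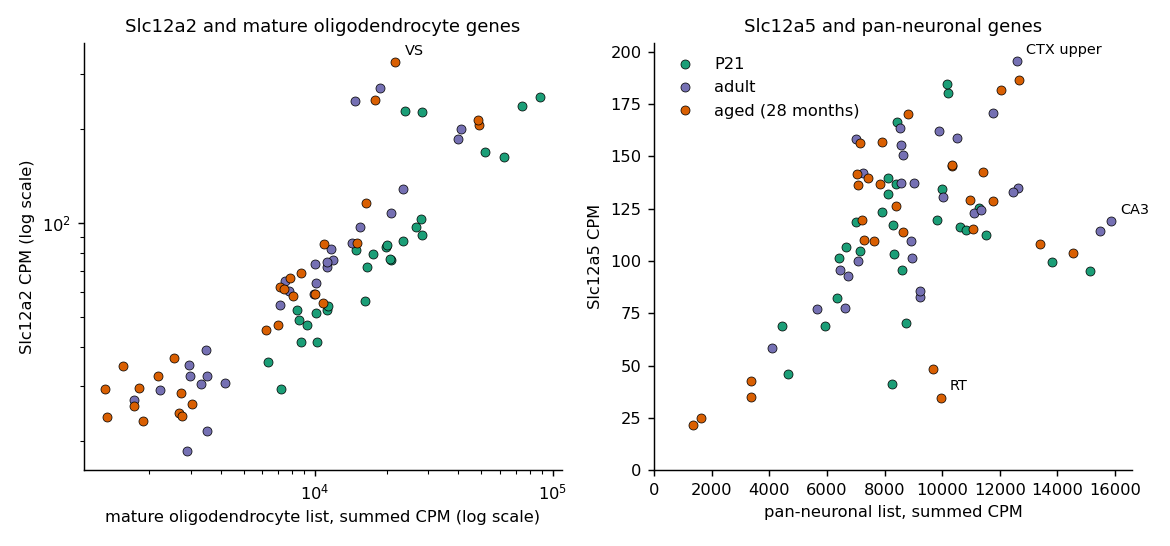
Left, Slc12a2 CPM against the summed CPM of 8 mature oligodendrocyte genes (both axes log); right, Slc12a5 CPM against the summed CPM of 10 pan-neuronal genes (linear axes). Each of the 84 points is 1 zone of 1 section, coloured by age. The VS lies above the trend on the left, and the RT and CA3 lie low on the right.

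Zones also differed in Slc12a5 relative to the pan-neuronal sum. Per 1000 pan-neuronal UMIs it was 16.9 and 14.7 at P21, 19.6 and 22.6 in adult mice and 19.8 and 21.9 in aged mice in the DG, against 7.20 and 6.31, 7.51 and 7.37, and 8.06 and 7.12 in CA3. In the RT, whose neurons are GABAergic, it was 8.04 and 5.01 at P21, 8.96 and 9.32 in adult mice and 4.99 and 3.49 in aged mice. The DG and CA3 ranges did not overlap, although both are hippocampal layers of glutamatergic neurons. Over all sections the pan-neuronal sum averaged 7241 CPM in the DG and 14700 CPM in CA3, beside 139.5 and 106.6 CPM of Slc12a5. The gap between these quotients thus lay more in the sum than in Slc12a5. Slc12a2 per 1000 mature oligodendrocyte UMIs was higher in the VS than in the FT in each section, with 8.07 and 9.58 at P21, 16.7 and 14.5 in adult mice and 13.9 and 15.1 in aged VS, against 3.19 and 2.85, 4.87 and 4.67, and 4.2 and 4.40 in the FT.

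Within the FT, spots whose neighbours all belonged to the FT were compared with those at its edge. Slc12a2 was higher inside in 6 of 6 sections (mean log2 difference 0.30 ± 0.06, SD, n = 6). Slc12a5 was lower inside in 6 of 6 sections (−0.51 ± 0.42), as was the pan-neuronal sum (−0.50 ± 0.32). The exact two-sided sign-flip p was 0.03125 for each, the smallest that 6 sections allow. The FT was named by myelin genes, and its edge spots border other zones. These directions were thus largely set by the choice of spots, and no conclusion is drawn from the p-values.

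P21 vs. adult, Slc12a2 was higher in 12 of 14 fitted zones by the sign of the change and passed the test in 5 of them, all higher, where 4.94% of all tests of a gene in a zone were called higher. The changes differed between zones (adjusted p = 0.000529, edgeR F-test of the zone-by-age terms with the section as a block), a test that 15.4% of 13907 genes passed. In the FT, with the values given above, P21 exceeded adult by 0.41 ± 0.08 (adjusted p = 0.00137, where 11.1% of genes were called higher). In the STR, Slc12a2 was counted at 102.8 and 87.7 CPM at P21 and 74.8 and 59.1 CPM in adults (log2 change 0.56 ± 0.13, adjusted p = 0.0113, background 4.42%). In the RT it was counted at 168.6 and 163.3 CPM at P21 and 128.6 and 107.7 CPM in adults (0.56 ± 0.15, adjusted p = 0.0207, background 3.73%).

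The TH had 97.4 and 91.4 CPM of Slc12a2 at P21 and 82.3 and 76.0 CPM in adults (0.28 ± 0.09, adjusted p = 0.0478, background 8.88%). CA1 had 54.3 and 29.3 CPM at P21 from 69 and 16 UMIs, and 21.5 and 18.6 CPM in adults from 21 and 19 UMIs (1.21 ± 0.29, adjusted p = 0.0168, background 2%). P21 and adult sections did not overlap in these 5 zones. P21 replicate 1 set most of the CA1 value, which was 0.59 (adjusted p = 0.711) without it. Adult replicate 2 mattered in each zone, since without it the change was 0.35 in the FT (adjusted p = 0.0562), 0.41 in the STR (0.193), 0.43 in the RT (0.312), 0.23 in the TH (0.312) and 1.10 in CA1 (0.224). Without P21 replicate 1 the calls of the STR (0.41, adjusted p = 0.325), RT (0.54, 0.265) and TH (0.24, 0.315) were lost too, without P21 replicate 2 those of the RT (0.57, 0.0525) and TH (0.32, 0.171), and without adult replicate 1 those of CA1 (1.30, 0.0677) and the TH (0.32, 0.138).

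The HY was the gray matter zone that went the other way, with 84.7 and 76.7 CPM at P21 and 96.8 and 86.3 CPM in adults (−0.21 ± 0.13, adjusted p = 0.355). A cluster led by Oxt, Avp and Agrp made up 322 of 505 and 228 of 436 HY spots at P21. In adults it made up 3 of 224 and 52 of 213, so the HY spots of both ages differ in make-up. The part of this mix was not tested. Mature oligodendrocyte genes were higher on average at P21 in all 14 zones, with or without a call. In the zones with a call they summed to 81500 against 40480 CPM in the FT, 25660 against 10580 CPM in the STR, 57220 against 22160 CPM in the RT, 27400 against 11790 CPM in the TH and 9264 against 3201 CPM in CA1. In zones without a call they were 7377 against 1980 CPM in the DG, 10690 against 3135 CPM in the PIR-AMY, 8646 against 3217 CPM in the CTX upper and 20350 against 14860 CPM in the HY. Their part in the Slc12a2 differences was not tested.

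Slc12a5 passed the test in 0 of 14 zones in P21 vs. adult, although 12 of 14 changes were below 0 (3.97% of all tests of a gene in a zone were called lower). The nearest were the DG, with 118.7 and 104.8 CPM at P21 against 141.9 and 158.3 CPM in adults (−0.44 ± 0.14, adjusted p = 0.0639), and the FT, with 82.2 and 68.9 CPM against 100.1 and 92.8 CPM (−0.27 ± 0.10, adjusted p = 0.0655). In both zones the ages did not overlap. The paper drew its own fiber tract cluster and compared spots with a Wilcoxon test. Against adults, it lists Slc12a5 there among genes higher at P21, the other direction, and among genes lower in aged mice. In edgeR the DG, FT and HY had an unadjusted p under 0.05, and DESeq2 called 0 zones. The zone-by-age test gave an adjusted p of 0.234.

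Aged vs. adult, Slc12a2 was lower in 4 zones that passed the test, against 12.7% of all tests of a gene in a zone, and 11 of 14 changes were below 0. The changes differed between zones (adjusted p = 0.000495, a test that 48% of 13907 genes passed). In the MEN it was counted at 65.0 and 74.1 CPM in adult mice and 29.2 and 36.9 CPM in aged mice (−0.97 ± 0.19, adjusted p = 0.00127, where 9.35% of genes were called lower). In the CTX upper it was counted at 39.2 and 35.1 CPM in adult mice and 23.2 and 32.2 CPM in aged mice (−0.40 ± 0.15, adjusted p = 0.0458, background 15%).

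The CTX deep had 60.6 and 54.7 CPM of Slc12a2 in adult mice and 47.0 and 45.2 CPM in aged mice (−0.34 ± 0.12, adjusted p = 0.0385, background 14.1%), and the TH had 82.3 and 76.0 CPM against 61.3 and 66.7 CPM (−0.27 ± 0.09, adjusted p = 0.0388, background 15.5%). Adult and aged sections did not overlap in these 4 zones. The MEN call stayed when any 1 section was left out. The CTX upper call was lost without adult replicate 1 (−0.31, adjusted p = 0.268), adult replicate 2 (−0.48, 0.0622) or aged replicate 1 (−0.22, 0.222), the CTX deep call without adult replicate 1 (−0.27, 0.280), adult replicate 2 (−0.41, 0.0901) or aged replicate 2 (−0.29, 0.0946), and the TH call without adult replicate 1 (−0.24, 0.187) or adult replicate 2 (−0.32, 0.0934). In the FT and VS, where Slc12a2 was highest, the aged changes were 0.14 ± 0.08 (adjusted p = 0.181) and 0.24 ± 0.16 (adjusted p = 0.289).

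The mature oligodendrocyte sum was lower on average in aged mice in all zones but the FT (48890 against 40480 CPM) and VS (19860 against 16740 CPM), with or without a call of Slc12a2. In the 4 zones with a call it was 1934 against 8713 CPM in the MEN, 2029 against 3217 CPM in the CTX upper, 6596 against 7413 CPM in the CTX deep and 7604 against 11790 CPM in the TH, and in zones without a call 1768 against 3135 CPM in the PIR-AMY, 9837 against 14860 CPM in the HY and 15690 against 22160 CPM in the RT. The meningeal and mural genes of the MEN summed to 783.1 CPM in aged and 1823 CPM in adult mice. Ttr, a secreted carrier of the choroid plexus, was counted in these zones far less often in aged sections, with 12.6 and 11.1 CPM against 392.3 and 267.1 CPM in the adult CTX upper, 66.4 and 125.2 CPM against 1113 and 558.4 CPM in the MEN and 59.3 and 36.3 CPM against 909.2 and 599.8 CPM in the TH. In the CTX deep it was at 24.8 and 26.4 CPM against 523.2 and 293.3 CPM. This did not hold in every zone, since aged replicate 1 had more Ttr than both adult sections in the DG (1979 CPM against 164.4 and 67.8 CPM), HP matrix (3072 CPM against 1004 and 415.6 CPM) and STR (1064 CPM against 702.9 and 442.7 CPM), and the FT overlapped (1271 and 1804 CPM against 2711 and 1593 CPM). The part of such transcripts outside their home zone in these differences was not tested.

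Slc12a5 fell in the FT, VS and RT of aged mice and rose in the MEN. It was thus called lower in 3 and higher in 1 of 14 zones. Of all tests of a gene in a zone, 12.7% were called lower and 13.7% higher. In the FT it was counted at 100.1 and 92.8 CPM in adult mice and 34.9 and 42.5 CPM in aged mice, where 25.9% of genes were called lower (log2 change −1.30 ± 0.11, adjusted p = 9.81e-09). In the VS it was counted at 77.1 and 58.2 CPM in adults, from 88 and 23 UMIs, and 25.0 and 21.7 CPM in aged mice, from 35 and 27 UMIs (−1.52 ± 0.26, adjusted p = 2.3e-05, background 13%). In the RT it was counted at 82.7 and 85.9 CPM in adult mice and 48.2 and 34.7 CPM in aged mice (−0.97 ± 0.20, adjusted p = 0.000393, background 13%).

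Adult and aged sections did not overlap in these zones, and P21 lay between them in the FT and overlapped with adults in the VS. The MEN had 95.8 and 77.5 CPM of Slc12a5 in adult mice and 113.7 and 119.8 CPM in aged mice (0.50 ± 0.15, adjusted p = 0.0226, background 11.9%). The FT and RT calls stayed when any 1 section was left out, whereas that of the VS was lost without adult replicate 1 (−1.26, adjusted p = 0.0559) and that of the MEN without adult replicate 1 (0.67, 0.0530) or adult replicate 2 (0.39, 0.212). The other 10 zones had changes between −0.14 and 0.18. The changes differed between zones (adjusted p = 2.31e-13, edgeR F-test of the zone-by-age terms), a test that 48% of 13907 genes passed.

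The pan-neuronal sum was also lower in the aged FT and VS, higher in the aged MEN, and not lower in the aged RT. It averaged 6905 CPM in adult and 3355 CPM in aged FT, and Slc12a5 per 1000 pan-neuronal UMIs was 14.2 and 13.8 in adult and 10.5 and 12.6 in aged FT. In the VS the sum averaged 4864 and 1487 CPM, and the quotient was 13.6 and 14.3 in adult mice and 15.4 and 16.0 in aged mice. In the RT the sum averaged 9224 and 9808 CPM, so the quotient followed Slc12a5, while the glutamatergic genes went from 1048 to 185.5 CPM and the GABAergic genes from 1602 to 3866 CPM. In the MEN, where Slc12a5 rose, the pan-neuronal sum averaged 6533 and 7936 CPM and the glutamatergic sum 1448 and 1878 CPM, and Slc12a5 per 1000 pan-neuronal UMIs overlapped, with 14.8 and 11.7 in adult and 13.2 and 16.6 in aged sections.

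Other measures moved in the same zones. Microglial genes averaged 1979 CPM in aged FT against 647.9 CPM in adults. Inside the FT, away from its edge, Slc12a5 was at 88.7 and 85.8 CPM in adult mice and 21.2 and 25.6 CPM in aged mice. Ttr in the RT was at 2301 and 2065 CPM in adult mice and 142.8 and 264.2 CPM in aged mice, as values of a transcript counted away from its home zone. With each spot thinned to 5000 UMIs, 37.2% and 35.7% of adult and 14.8% and 17.7% of aged FT spots had an Slc12a5 UMI, as had 29.7% and 28.0% at P21. The part of the slide version, of transcripts from neighbouring tissue and of cell composition in these differences was not tested.

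**Figure D5:**
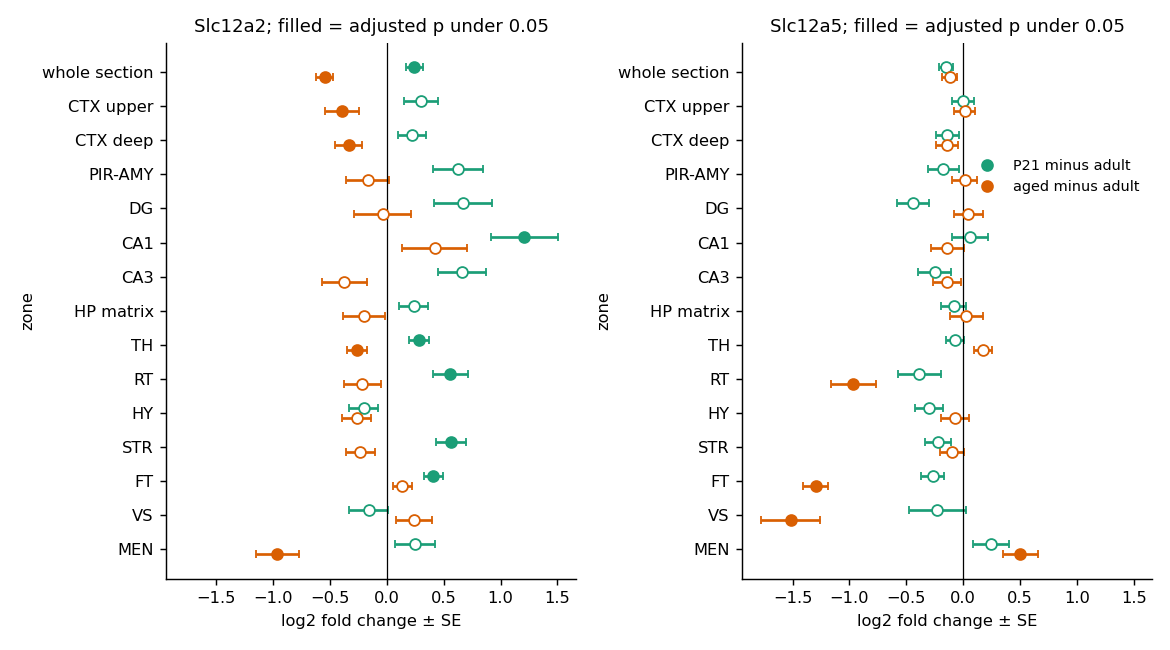
Log2 fold change with its SE of Slc12a2 and Slc12a5 in whole sections and 14 zones, for P21 minus adult and aged minus adult, with filled points at an adjusted p under 0.05 (edgeR). Slc12a2 is mostly above 0 at P21 and below 0 in aged mice, and Slc12a5 stands apart in the aged FT (−1.30), VS (−1.52) and RT (−0.97).

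The zone ratios followed from these values. In P21 vs. adult the log2 ratio of Slc12a5 to Slc12a2 was lower without overlap in all of the 14 zones but the HY, VS and MEN, where the ages overlapped. The differences ran from −1.14 in the RT, −1.05 in the DG (1.18 and 1.55 against 2.29 and 2.55), −0.93 in CA1 and −0.90 in CA3 to −0.28 in the CTX upper. In aged vs. adult the ratio went both ways. It was lower without overlap in the VS (difference −1.67), FT (−1.44), RT (−0.80) and CA1 (−0.58), it overlapped in the DG and STR, and it was higher without overlap in the other zones, by 0.18 in the CTX deep to 0.45 in the CTX upper and 1.52 in the MEN. The adult ratio was thus above that of both other ages in the FT, RT and CA1. In the FT it went from −1.0 and −1.0 in adults to −1.53 and −1.88 at P21 and −2.56 and −2.33 in aged mice. Each difference without overlap has the exact p of 0.333 that 2 against 2 sections allow.

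Of the 43 genes listed for chloride transport and its control, 42 were tested over whole sections. In P21 vs. adult 5 were called higher and 6 lower, against 11.7% and 11.2% of all genes, and in aged vs. adult 9 were called higher and 16 lower, against 33.2% and 25.8%. The median change over the list was 0.01 at P21 and −0.03 in aged mice, beside 0.00 and 0.04 over all genes tested. With library size alone, the aged calls were 16 higher and 8 lower, and the share of higher genes among all genes called in aged vs. adult went from 56.3% to 70.6%.

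Among the other transporters that carry chloride out, Slc12a4 (KCC1) was higher at P21, with 20.9 and 22.4 CPM against 17.0 and 14.3 CPM in adults (0.46 ± 0.10, adjusted p = 0.00819). Slc12a7 (KCC4) was counted at 2.89 to 3.70 CPM and not called at P21. In aged vs. adult neither Slc12a4 nor Slc12a7 was called. Slc12a9 was higher in aged mice, at 24.6 and 25.6 CPM against 17.3 and 14.5 CPM (0.55 ± 0.09, adjusted p = 0.000497), and the kidney cotransporters Slc12a1 and Slc12a3 stayed under 1 CPM, with 76 and 139 UMIs in the 6 sections together.

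The WNK kinases act through their target kinases SPAK (Stk39) and OSR1 (Oxsr1), which phosphorylate both transporters. This activates NKCC1 and inhibits KCC2. At P21, 3 of 8 genes of this list were lower and 0 higher, where 11.2% of all genes were called lower and 11.7% higher. Oxsr1 was counted at 57.6 and 62.1 CPM at P21 and 99.7 and 101.6 CPM in adults (−0.76 ± 0.07, adjusted p = 1.99e-05), Cab39l, a scaffold of these kinases, at 15.7 and 14.6 CPM against 23.7 and 21.3 CPM (−0.57 ± 0.08, adjusted p = 0.00051), and Wnk4 at 4.86 and 4.67 CPM against 8.88 and 6.99 CPM (−0.74 ± 0.14, adjusted p = 0.00328). In aged mice 4 of 8 were lower and 1 higher, against 25.8% and 33.2% of all genes. Wnk1 was counted at 112.5 and 123.6 CPM against 168.1 and 162.6 CPM in adults (−0.59 ± 0.06, adjusted p = 3.79e-05) and Wnk4 at 4.70 and 4.48 CPM (−0.90 ± 0.14, adjusted p = 0.000331). Stk39 was not called at either age.

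The sodium pump builds the gradients that drive both cotransporters. Of 5 subunit genes tested, 1 was called higher and 2 lower in each comparison. The shares of all genes called higher and lower were 11.7% and 11.2% at P21 and 33.2% and 25.8% in aged sections. Atp1b1, a beta subunit of the pump, was lower in aged mice, at 2435 and 2510 CPM against 3243 and 3235 CPM in adults (−0.50 ± 0.06, adjusted p = 7.39e-05). Atp1b3 was lower at P21, at 105.3 and 99.3 CPM against 136 and 131.8 CPM (−0.39 ± 0.06, adjusted p = 0.00119), and higher in aged mice, at 174.9 and 177.9 CPM (0.29 ± 0.06, adjusted p = 0.00218). Atp1b2, another beta subunit, was higher at P21 (0.21 ± 0.06, adjusted p = 0.0288).

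Of the chloride channels and exchangers of the Clcn family, 1 of 7 was called at P21, Clcn5 (0.62 ± 0.09, adjusted p = 0.000626), an endosomal exchanger, which was higher with 19.0 and 20.6 CPM against 13.0 and 12.6 CPM in adults. In aged mice 1 was higher, the muscle-type channel Clcn1 (0.87 ± 0.14, adjusted p = 0.000401), and 3 were lower, among them Clcn4 (−0.39 ± 0.06, adjusted p = 0.000464). Of all genes, 11.7% were called higher and 11.2% lower at P21, and 33.2% higher and 25.8% lower in aged sections. Of the bicarbonate exchangers that move chloride, 3 of 5 were lower and 1 higher in aged mice. Slc4a3 was counted at 89.9 and 92.5 CPM against 136.8 and 136.1 CPM in adults (−0.69 ± 0.06, adjusted p = 1.3e-05) and Slc4a2 at 67.2 and 59.6 CPM against 94.5 and 82.2 CPM (−0.59 ± 0.09, adjusted p = 0.000266). Slc4a1, the anion exchanger of red cells, was called higher at P21 with 65 and 15 UMIs against 2 and 1 in adults, and erythrocyte genes were higher in the same sections. It was also called higher in aged mice (2.74 ± 0.77, adjusted p = 0.0094), with 23 and 18 UMIs, where 0 of 4 erythrocyte genes were called and their sum was 184.2 against 242.9 CPM in adults.

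Of 10 partners and upstream factors of KCC2, 1 was called higher and 0 lower at P21, against 11.7% and 11.2% of all genes. In aged mice 2 were higher and 4 lower, against 33.2% and 25.8%. Rest, a repressor of neuronal genes, was higher at P21, at 12.2 and 11.3 CPM against 8.50 and 7.53 CPM in adults (0.55 ± 0.11, adjusted p = 0.00541). It was lower in aged mice (−0.32 ± 0.11, adjusted p = 0.0298). In aged mice Egr4, an immediate early transcription factor, was higher at 49.5 and 43.9 CPM against 26.7 and 22.1 CPM (0.83 ± 0.09, adjusted p = 5.61e-05). Neto2, a KCC2-binding protein, was not called at P21 and was lower in aged mice (−0.21 ± 0.06, adjusted p = 0.0133). Usf1, a factor whose motif CACGTG is printed above, was not called at P21 and was higher in aged mice (0.29 ± 0.08, adjusted p = 0.00636). Binding to the printed site was not measured.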

How the data were processed

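The authors' raw counts, on mm10, give the UMIs of each gene in each tissue-covered spot and were deposited without normalization. The file headers name Space Ranger 2.0.0 (P21, adult) and 3.1.1 (aged), and the submitters' processing notes 2.1.0. The deposited Moran's I score of each gene was also made by Space Ranger and was used as given. Seurat 5.1.0, Harmony and the manual annotation of the study were not repeated.

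Spots with under 250 genes or 500 UMIs were removed. Zones were rebuilt in Python 3.11.15 from 3000 variable genes without Slc12a2, Slc12a5 and their pathway, standardized per section, with 20 principal components, 20 neighbours and Leiden clustering at resolution 1 (leidenalg 0.10.2). A cluster was named where a marker panel scored at least 0.2, led the next by 0.2 and had 3 genes raised. One cluster led by Ndnf and Reln was left unnamed by a rule added after the clusters were seen. Doublets do not apply to spots.

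UMIs were summed per section and zone with at least 10 spots in each section, which left 14 zones. Sections are the replicates and were grouped by the labels. edgeR 4.0.16 (R 4.3.3) with TMM factors, filterByExpr and glmQLFTest were run on the 6 sums of a zone with age and no other covariate, and Benjamini-Hochberg adjusted p are over all genes of a fit. The SE was derived from the log2 change and its F statistic. Both comparisons share the adult sections. Logs of CPM use a pseudocount of 1 CPM (10 CPM for single spots). On simulated counts, changes of 1.5 and 2 times in aged vs. adult were called for 66.3% and 85.4% of genes in whole sections, 59.2% and 84.7% in the FT and 14.3% and 59.6% in the VS. The members, gene lists and tests were chosen with earlier results of these data known. The named pathway genes are up to 10 per comparison with the smallest adjusted p, and genes named beyond them (Atp1b3, Slc4a1, Neto2, Rest and Usf1 in aged mice, and those not called) were chosen after their values were seen. Some genes that the rules name are not reported here. Alternatives were other scalings, filters, spot sets and clusterings, DESeq2 1.42.0, a replicate block and leaving out each section.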

Additional observations from a re-analysis of the deposited data

Results flagged for a closer look

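For 3 of the 4 combinations of a transporter and a comparison, the age effect differed between the 14 zones in the test of the zone-by-age terms (edgeR, section as a block). The adjusted p was 0.0005293 for Slc12a2 in P21 vs. adult, where the zone changes ran from −0.21 in the HY to 1.21 in CA1. It was 0.0004948 for Slc12a2 in aged vs. adult, with changes from −0.97 in the MEN to 0.42 in CA1 (not called, adjusted p = 0.315), a zone whose astrocyte genes averaged 4950 CPM in aged and 1598 CPM in adult sections and whose endothelial genes averaged 345.4 and 139.9 CPM. The part of this shift was not tested. It was 2.313e-13 for Slc12a5 in aged vs. adult, with changes from −1.52 in the VS to 0.50 in the MEN. Age coincides with the slide version in the aged comparison, and both cannot be told apart.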

How the results depend on the processing

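The alternatives gave 722 values of the whole-section changes, zone-by-age tests, ratios, zone orders, counts of zones and pathway genes called, and single zones and pathway genes with a call. Of these, 594 kept their side of the threshold or stayed within 1.5 times or 1 SD, 90 lost a call, 2 (Slc12a5 over whole sections) gained one, 36 counts or ratios moved further and 0 reversed. Zones without a call enter through the counts of zones. For Slc12a2 at P21 the PIR-AMY was called higher in 2 of 14 alternatives, the DG in 1 of 13 and CA3 in 1 of 12. The VS was called lower in 1 of 12, and its changes ran from −0.92 to −0.09 over these alternatives. In aged vs. adult, Slc12a2 was called in the FT in 2 of 14 alternatives, with changes from −0.05 to 0.27 over the 14. In the STR it was called in 1 of 14, with changes from −0.43 to −0.06. A required fold change over 1.5 removed the whole-section calls of Slc12a2 (0.24 and −0.55), and fitting 4 sections alone called Slc12a5 at P21 (−0.15). Leaving out 1 section gave 0.18 to 0.30 for Slc12a2 at P21, with 0 of 4 called, and −0.16 (called, without aged replicate 2) to −0.0714 for Slc12a5 in aged vs. adult. The zones called for Slc12a2 at P21 went from 5 to 1 with DESeq2, 1 of 7 with interior spots, 1 with the fold limit and 0 to 3 without 1 section. For Slc12a2 in aged vs. adult, 4 became 1 with DESeq2, 2 with the replicate block, 2 with interior spots, 1 with the fold limit and 1 to 3 without 1 section. For Slc12a5 at P21, 0 became 1 with library size alone, 1 without a filter, 2 with 4 sections, 1 with zones from each section alone, 1 with 10 principal components and 0 to 1 without 1 section. For Slc12a5 in aged vs. adult, 4 became 1 with interior spots, 1 with zones from each section alone and 2 to 5 without 1 section, and the fall in the FT was called in 15 of 15 alternatives and that in the RT in 13 of 13. Interior spots and zones from each section alone gave no value for zones with too few spots. The zone-by-age adjusted p of Slc12a2 was 0.0649 (P21) and 0.193 (aged) with interior spots, and 7.59e-06 to 0.163 (highest without P21 replicate 1) and 0.000175 to 0.0654 (highest without adult replicate 1) without 1 section. Pathway genes called at P21 were 2 higher and 2 lower with the fold limit, 3 lower of the genes detected in at least 10% of spots, and 3 to 4 higher without 1 section. In aged vs. adult they were 16 higher and 8 lower with library size alone, 5 and 4 with the fold limit, and 7 lower with the detection limit. The ratio difference was −0.63 (P21) and 0.32 (aged) as a median over spots and 0.55 (aged) without the VS, MEN and unnamed spots. All genes called over whole sections at P21 went from 2118 higher and 2021 lower to 928 to 1319 higher and 704 to 1179 lower without 1 section, and in aged vs. adult from 6006 and 4665 to 2819 and 2680 with the detection limit. The causes were not tested, beyond the fewer genes or spots that some alternatives hold.

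With the replicate number as a block, Slc12a2 over whole sections was 0.24 (adjusted p = 0.0424) at P21 and −0.54 (adjusted p = 0.00014) in aged vs. adult. The samples share a number without a stated pairing, and the deviations of same-numbered sections correlated at 0.12, −0.115 and −0.338 over genes. Zones of few UMIs set the limits, such as 16 to 73 UMIs of Slc12a2 per section in CA1 and 21 to 88 UMIs of Slc12a5 in the VS.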

Other observations

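The marker genes of other cell types also differed by age over whole sections. Of 7 genes of newly formed oligodendrocytes, the cells that have just left the cell cycle to make myelin, 6 were called higher and 1 lower in P21 vs. adult (edgeR), where 11.7% of all genes were called higher and 11.2% lower, and in aged vs. adult 4 were called lower and 1 higher, against 25.8% and 33.2% of all genes. Their sum was 435.7 and 471.9 CPM in the P21 sections, 316.9 and 319 CPM in the adult ones and 299 and 341.5 CPM in the aged ones, so that aged and adult sections overlapped. Of 6 oligodendrocyte precursor genes, 3 were called higher and 0 lower at P21, and 0 higher and 4 lower in aged mice. All 5 ependymal genes, which mark the ciliated lining of the ventricles, were called higher at P21, with a sum of 55.3 to 55.4 CPM against 26.8 to 34.0 CPM in adults. The sum of 7 choroid plexus genes spread from 1484 to 3208 CPM between both adult sections, wider than the differences between the means of the ages.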
